A study of Ipomoea batatas with 12 samples.

Results

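A set of 273 genes stood higher with the peptide IbPep1 and lower with the peptide IbHypSysIV than with water in leaves of sweet potato. They are 273 of the 32301 gene identifiers in the deposited count table, and 1.33% of the 20558 genes whose water mean reached 1 CPM (CPM, read counts scaled to a library total of 1000000). The 273 were selected on measured values of all 12 libraries. With each level written as log2(CPM + 0.5), a gene had to reach a water mean of 1 CPM, a mean with IbPep1 at least 0.4 above the water mean, a mean with IbHypSysIV at least 0.4 below it, and every IbPep1 library above every IbHypSysIV library. The selection uses each of the 3 comparisons between the groups, so the differences and the calls given here describe the chosen genes, and no test of them is independent of the choice.

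Plants of the cultivar Tainong 57 were raised from scions in growth chambers, and their 3rd leaves received water, IbHypSysIV or IbPep1 for 1 h, with 4 libraries per treatment. All 3 groups share this cultivar, leaf position and time, and water is the only control. The source label names IbPep1 for each of the 4 libraries of that group, while a second label field counts from IbPep1 to IbPep4 across them. Their titles begin with P2P, which the labels do not explain, so the identity of the peptide rests on the source label. Nothing in the labels ties replicates to separate plants, and a spread between replicates may therefore be partly technical.

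Hydroxyproline-rich systemins, whose name IbHypSysIV carries, are small glycosylated peptides cut from larger precursors, known from the nightshade family and from sweet potato as signals of wounding and of feeding by insects. Plant elicitor peptides, known best as the Peps of Arabidopsis, are released from precursor proteins in damaged cells and bind leucine-rich repeat receptor kinases at the cell surface. In other plants both families are known to feed into calcium, jasmonate and ethylene signalling, and the series concerns the receptor of such a damage signal in sweet potato.

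The identifiers could not be joined to gene names or functions. Of the 32301 identifiers, 0 were found in the reference gene table that was searched, which describes another assembly, so genes are given no name or role, the leaf label could not be checked against marker genes, and 4 identifiers are printed. Near-identical copies that share reads could not be recognised, and the labels do not say whether counting used strand. Total counts ran from 16607188 to 25073251 per library, so 3 counts correspond to 0.120 to 0.181 CPM. This floor covers counting error only. Water replicate 3 was the highest of the 4 water libraries in 45.5% of the 20558 genes, and results are given with and without it.

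Many genes met each side of the selection, and fewer met both. At the limit of 0.4, which is a 1.32-fold difference, 3941 of the 20558 genes were higher with IbPep1 and 2866 were lower with IbHypSysIV. Both held for 335 genes, of which 62 had overlapping IbPep1 and IbHypSysIV libraries and 273 did not. The chosen genes are thus 6.93% of those higher with IbPep1 and 9.53% of those lower with IbHypSysIV. Both differences subtract the same water mean, so the sides are not independent, and nothing is read from these shares. Whether 335 is more or fewer than unrelated sides would give was not tested. The mirror-image selection, lower with IbPep1 and higher with IbHypSysIV, holds 250 genes.

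With all 12 libraries, and under equal limits of 0.4 either way, the typical chosen gene differed from water by about the same amount in each direction. The median difference on the log2(CPM + 0.5) scale was 0.61 for IbPep1 minus water (range 0.40 to 2.95) and -0.60 for IbHypSysIV minus water (range -1.68 to -0.40). Over all 20558 genes the medians were -0.00378 and -0.0256. Between the peptides the median difference was 1.30, from 0.85 to 3.73, against 0.0331 over all genes. Large changes were few: 43 genes differed by at least 1 with IbPep1, 27 by at least 1 with IbHypSysIV, and 2 by at least 1 in both. The IbPep1 difference was the larger in 150 genes and the IbHypSysIV difference in 123. In bulk leaf RNA, fewer cells of a type and less RNA per cell cannot be told apart.

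**Figure D1:**
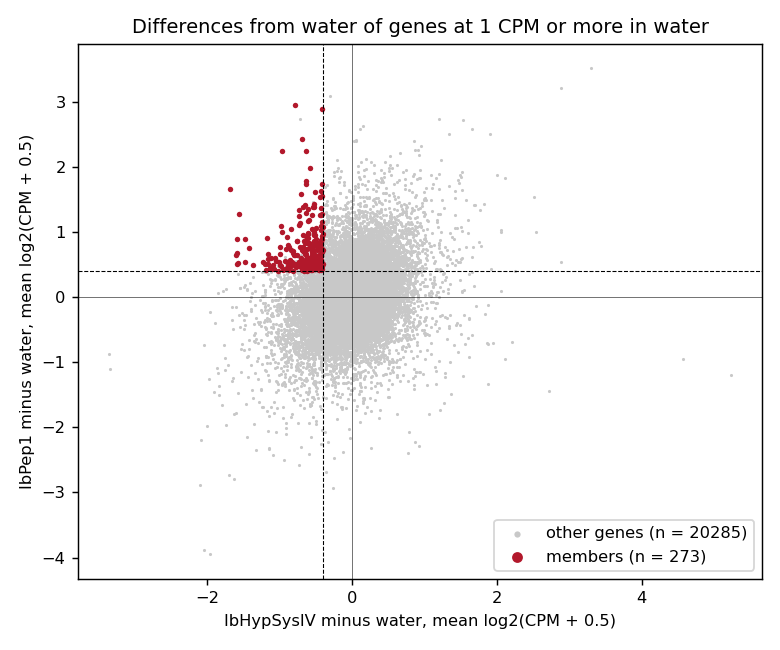
Mean log2(CPM + 0.5) of IbHypSysIV minus water (horizontal) against IbPep1 minus water (vertical) for genes with at least 1 CPM in water, with the 273 chosen genes in red and the limits of 0.4 as dashed lines. The chosen genes fill the upper left corner, with 71 within 0.1 of the IbPep1 limit and 75 within 0.1 of the IbHypSysIV limit, 43 at 1 or more upward and 27 at 1 or more downward.

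Many of the genes lie close to the limits, so the edge of the set is not a natural boundary. The 3 nearest inside the IbPep1 limit differed from water by 0.402, 0.403 and 0.406, and the 3 nearest outside it by 0.398, 0.398 and 0.395. At the IbHypSysIV limit the values were -0.401, -0.401 and -0.404 inside and -0.398, -0.397 and -0.394 outside. Within 0.1 of the limit there were 71 chosen genes on the IbPep1 side and 75 on the IbHypSysIV side, while 78 and 112 genes meeting all the other conditions missed by less than 0.1.

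The genes covered a wide range of abundance. Their mean levels in water ran from 1.04 to 787 CPM with a median of 13.3 CPM, and 69 genes were under 5 CPM while 20 were at 100 CPM or more. In every library 0 of them were without reads, 256 had at least 10 counts in all 12 libraries, and 3 had fewer than 3 counts in some library. All 273 passed the filter on low counts used for testing. Transcript lengths were not used here, so levels are not compared between genes.

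Summed over the 273 genes, their share of all reads was lowest with IbHypSysIV and highest with IbPep1. In water it was 0.813%, 0.772%, 1.38% and 0.832% of the reads of replicates 1 to 4. With IbHypSysIV it was 0.678%, 0.451%, 0.532% and 0.711%, and with IbPep1 it was 1.53%, 1.58%, 1.61% and 1.42%. The selection fixed the order of the peptide groups and pushed the water mean between them, so that order is no finding. The 3 groups did not overlap on this measure, but water replicate 3 lay much nearer to the IbPep1 libraries than to the other water libraries. The means were 0.951% ± 0.291 in water, 0.593% ± 0.123 with IbHypSysIV and 1.53% ± 0.0821 with IbPep1 (SD, n = 4). The 20 genes at 100 CPM or more in water held 46.6% of the summed level in water, 45.6% with IbHypSysIV and 43.9% with IbPep1. Without them, the share of reads ran from 0.416% to 0.722% in water and from 0.211% to 0.4003% with IbHypSysIV. With IbPep1 it ran from 0.800% to 0.917%. The order was the same, as the selection favours, and again there was no overlap.

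The level of the typical gene showed the same uneven spread within the groups. Relative to the mean of the 4 water libraries, the median gene stood at -0.17, -0.20, 0.51 and -0.08 on the log2 scale in water replicates 1 to 4. In the IbHypSysIV libraries it stood at -0.27, -1.10, -0.69 and -0.41, and in the IbPep1 libraries at 0.67, 0.73, 0.68 and 0.56. Water replicate 3 was thus just under the lowest IbPep1 library, and IbHypSysIV replicate 2 was the lowest of its group, followed by replicate 3. Over all 20558 genes the same medians lay between -0.11 and 0.10 in the 12 libraries.

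**Figure D2:**
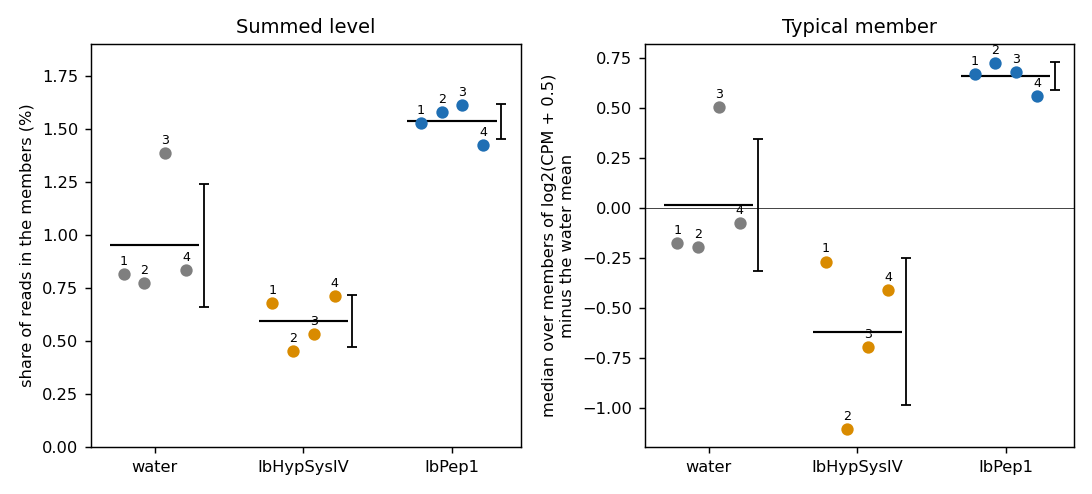
Left, the share of reads (%) in the 273 genes; right, the median over these genes of log2(CPM + 0.5) minus the water mean; points are libraries with their replicate number, the long bar is the mean and the short bar 1 SD (n = 4). The 4 IbPep1 libraries lie at 1.42% to 1.61%, water replicate 3 at 1.38% and the other water libraries at 0.772% to 0.832%.

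IbPep1 libraries varied little on these genes, and water and IbHypSysIV libraries varied more than on other genes. The median SD within a group was 0.26 on the log2 scale with IbPep1, against 0.24 over all 20558 genes. It was 0.45 in water and 0.48 with IbHypSysIV, against 0.26 and 0.28 over all genes. Without water replicate 3 the water values fell to 0.25 for the chosen genes and 0.16 for all genes.

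The wide spread came with a shared order of the libraries. Water replicate 3 was the highest of the water libraries in 205 of the 273 genes (75.1%), against 45.5% of the 20558 genes. IbHypSysIV replicate 2 was the lowest of its group in 178 genes (65.2%), against 40.1%. Both held in 154 genes (56.4%), against 25.3%. The selection sets no condition on this order, although it acts on the means that these libraries enter. IbHypSysIV replicate 1 was the highest of its group in 112 genes (41.0%), against 30.3% of the 20558 genes. Replicate 4 was the highest in 110 genes (40.3%), against 36.3%, which is little above the share over all genes. In the mirror-image set, water replicate 3 was the lowest water library in 58.8% of genes, against 31.7% of the 20558, and the highest in 21.2%. Its lean to the IbPep1 side was thus present in that set too.

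**Figure D3:**
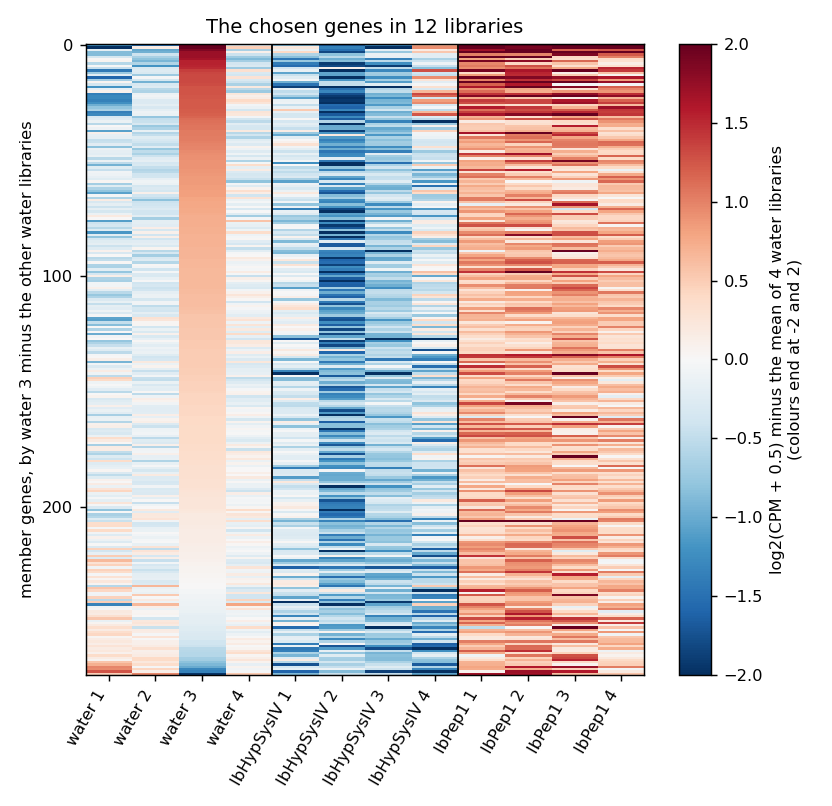
Level of each of the 273 genes (rows) in each library (columns) as log2(CPM + 0.5) minus its mean over the 4 water libraries, with rows ordered by water replicate 3 minus the other water libraries. Water replicate 3 is the highest water library in 205 rows, IbHypSysIV replicate 2 the lowest of its group in 178, and the IbPep1 columns are above the water mean in 257 to 271 rows.

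The genes can be divided by whether water replicate 3 was the highest water library, which it was in 205 and not in 68. This division, made after the values were seen, itself fixes that leaving the library out lowers the water mean of all 205, so the direction of the shift in them is no finding. Among the 205, the omission moved the median difference from 0.63 to 0.88 for IbPep1 minus water and from -0.59 to -0.37 for IbHypSysIV minus water, and 85 genes still met the selection. Among the 68, the medians went from 0.58 to 0.55 and from -0.63 to -0.70, and 57 still met it. In the 68 the IbHypSysIV libraries lay closer together, with medians of -0.33, -0.73, -0.74 and -0.81 relative to water, against -0.25, -1.25, -0.68 and -0.31 in the 205.

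Leaving out a library also changed which genes were chosen. Without water replicate 3 the same rule gave 192 genes, 142 of them among the 273; 121 of the 273 then failed the IbHypSysIV limit, 9 of which were no longer below water at all, and 9 failed the IbPep1 limit. Without IbHypSysIV replicate 2 it gave 174 genes, 152 of them shared, and 121 of the 273 again failed the IbHypSysIV limit. Without IbHypSysIV replicate 1 or 4 the rule gave 430 and 447 genes, which held 268 and 250 of the 273. The other 8 omissions gave 266 to 340 genes. A core of 53 genes met the rule under each of the 12 omissions, with median differences of 0.68 for IbPep1 and -0.79 for IbHypSysIV against water. In these 53 the medians relative to water were -0.49, -0.99, -0.86 and -0.70 in the IbHypSysIV libraries and 0.61 to 0.85 in the IbPep1 libraries, with water replicate 3 at 0.39.

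Few genes had 3 fully separate levels. All 4 IbPep1 libraries lay above all 4 water libraries in 70 of the 273 genes (25.6%), a pattern found in 8.84% of the 20558 genes. All 4 IbHypSysIV libraries lay below all 4 water libraries in 54 genes (19.8%), against 6.81%. Both held in 12 genes (4.40%), against 0.102% or 21 of the 20558 genes. In 161 genes (59.0%) neither held and the water libraries overlapped both peptide groups. Neither separation held in 84.4% of the 20558 genes. Since the selection used the same differences, nothing is read from these shares. Water replicate 3 lay above the lowest IbPep1 library in 170 genes, against 20 to 43 genes for the other water libraries. Without it, 209 genes (76.6%) had IbPep1 wholly above water, against 21.9% of the 20558 genes. IbHypSysIV was then wholly below water in 70 (25.6%), against 11.96%, and 32 (11.7%) had 3 separate levels, against 0.409%. The shares over all genes thus rose as well when this library was left out. In the mirror-image set of 250 genes, 40 had 3 separate levels in the reverse order; the difference from 12 was not tested.

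The 12 genes with separate levels covered a wide range of abundance and of change. They ranged from 1.10 to 787 CPM in water, from 0.41 to 1.28 in the IbPep1 difference and from -1.60 to -0.42 in the IbHypSysIV difference. The gap between the lowest IbPep1 and the highest water library was 0.01 to 0.74 on the log2 scale, and that between the lowest water and the highest IbHypSysIV library was 0.01 to 1.19. Water replicate 3 was the highest water library in 7 of the 12, IbHypSysIV replicate 2 the lowest of its group in 4, and 6 belong to the core of 53.

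Tested gene by gene, the chosen genes were called far more often between the peptides than against water, which the rule favoured. It asks for 0.4 on each side of water, so for both together between the peptides, where it also forbids overlap. With edgeR's quasi-likelihood test fitted to 23193 genes and a Benjamini-Hochberg adjusted p under 0.05, 33 of the 273 (12.1%) were called higher with IbPep1 than with water, where 5.51% of all genes tested were. For IbHypSysIV, 19 (6.96%) were called lower than water, against 1.10%. Between the peptides, 228 (83.5%) were called higher with IbPep1, against 6.70%. The rule used these contrasts, so the counts describe the set and support nothing about it. Calls against water overlapped in 2 genes, 178 genes were called between the peptides only, and 45 in none of the 3 comparisons. In the opposite direction this test called 0 of them, which the choice of genes all but fixed.

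The counts against water changed with single libraries, and the counts over all genes tested changed with them. For IbPep1 the 33 became 133 when water replicate 3 was left out, while the calls over all genes went from 1277 to 3009. They became 12 when water replicate 1 was left out, 11 for water replicate 2 and 8 for water replicate 4, and the calls over all genes fell to 369, 235 and 239. Leaving out IbPep1 replicate 1 gave 12 (448 over all genes), IbPep1 replicate 2 gave 10 (316), and IbHypSysIV replicate 3, which enters through the shared estimate of the spread, gave 18 (853). For IbHypSysIV the 19 became 1 when water replicate 1 was left out, 6 for water replicate 2 and 4 for water replicate 4, where the calls over all genes went from 254 to 27, 67 and 74. Omission of IbHypSysIV replicate 2 gave 12 (265 over all genes), of replicate 3 gave 1 (14) and of replicate 4 gave 8 (127). Omission of IbPep1 replicate 1 gave 9 (143) and of IbPep1 replicate 2 gave 11 (166). These shifts are therefore not read as a trait of the chosen genes. The 228 calls between the peptides ran from 153 to 251 over the 12 omissions, and those over all genes from 644 to 2254. In the core of 53, 13 genes were called for IbPep1, 10 for IbHypSysIV, 2 for both and all 53 between the peptides. Over all genes tested, 5.51% were called for IbPep1, 1.10% for IbHypSysIV and 6.70% between the peptides. The core was selected on these same differences, so nothing is read from its calls.

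Among genes with at least 10 counts in every library, itf03g12560 and itf13g00450 had the largest IbPep1 differences. The level of itf03g12560 was 2.89, 2.67, 20.05 and 6.14 CPM in water replicates 1 to 4, 7.66, 1.26, 3.15 and 8.49 CPM with IbHypSysIV and 49.3, 67.2, 33.6 and 38.6 CPM with IbPep1. The IbPep1 libraries were above all the others, whereas water and IbHypSysIV overlapped widely and only water replicate 3 came near the IbPep1 levels. Its mean was 5.95-fold higher with IbPep1 than with water, 47.2 ± 14.8 against 7.94 ± 8.23 CPM (SD, n = 4), and 5.14 ± 3.49 CPM with IbHypSysIV. On the log2 scale the differences were 2.90 and -0.41. The second of them was 0.17 without water replicate 3 and 0.06 without IbHypSysIV replicate 2, so the lower level with IbHypSysIV rested on either library. The gene was called for IbPep1 against water and between the peptides, and not for IbHypSysIV.

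The level of itf13g00450 was 19.9, 9.73, 48.3 and 13.98 CPM in water, 9.56, 13.6, 8.50 and 16.4 CPM with IbHypSysIV and 85.1, 102.9, 210.3 and 65.1 CPM with IbPep1. IbPep1 again stood clear of both other groups, which overlapped. The mean was 5.04-fold higher with IbPep1 than with water (115.8 ± 64.9 against 23.0 ± 17.4 CPM, SD, n = 4) and 1.91-fold lower with IbHypSysIV (12.03 ± 3.68 CPM). The log2 difference of IbHypSysIV from water was -0.69, and -0.25 without water replicate 3. Calls were the same as for itf03g12560.

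The largest falls with IbHypSysIV were those of itf12g18230 and itf08g09020, and they differed in how the libraries behaved. The level of itf12g18230 was 9.46, 18.7, 54.4 and 25.7 CPM in water, 5.75, 2.47, 4.43 and 28.1 CPM with IbHypSysIV and 70.7, 89.8, 81.2 and 52.0 CPM with IbPep1. IbHypSysIV replicate 4 lay within the water range and water replicate 3 within the IbPep1 range. The differences from water were -1.68 for IbHypSysIV and 1.66 for IbPep1, and -1.26 and 2.08 without water replicate 3. It was called between the peptides, and against water for neither peptide.

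By contrast, itf08g09020 had narrow and separate levels. It stood at 5.86, 5.04, 6.44 and 7.47 CPM in water, at 1.67, 1.93, 1.56 and 1.63 CPM with IbHypSysIV and at 11.7, 11.5, 8.21 and 8.92 CPM with IbPep1. No library of any group entered the range of another. The mean of 6.201 ± 1.02 CPM in water was 3.65-fold above the 1.70 ± 0.166 CPM of IbHypSysIV, and IbPep1 at 10.1 ± 1.77 CPM was 1.63-fold above water (SD, n = 4). Without water replicate 3 the log2 differences were 0.68 and -1.58, against 0.66 and -1.60 with it. It was called in all 3 comparisons.

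A further gene, mentioned because of its calls and so chosen after its values were seen, was called against water for both peptides. It stood at 4.85, 5.63, 6.57 and 6.60 CPM in water, at 4.69, 1.93, 2.83 and 1.99 CPM with IbHypSysIV and at 9.63, 10.3, 10.1 and 11.3 CPM with IbPep1. Its groups did not overlap either, although IbHypSysIV replicate 1 lay just under the lowest water library.

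**Figure D4:**
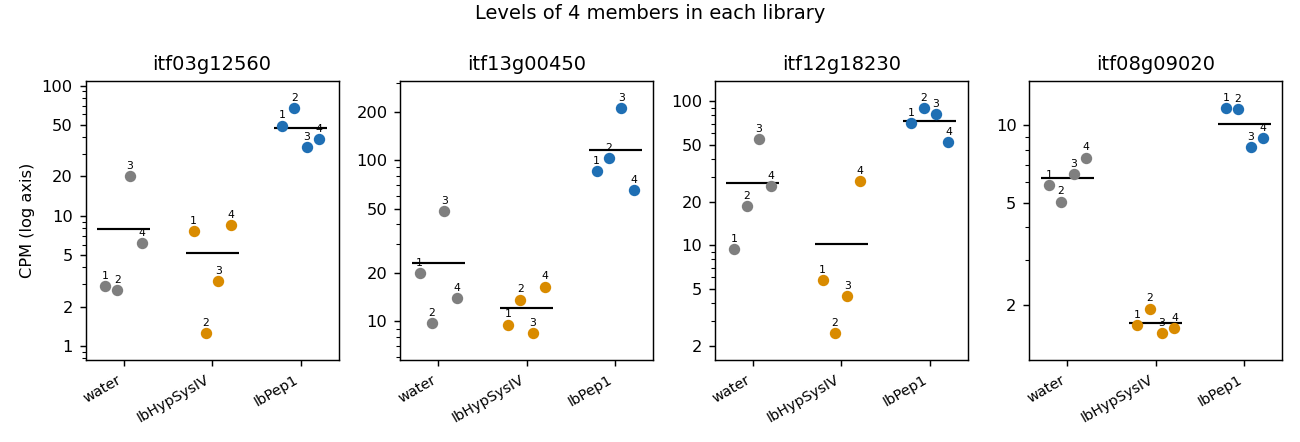
CPM (log axis) of 4 of the 273 genes in each library, with the replicate number beside each point and the group mean as a bar. In itf08g09020 the 3 groups are separate, at 1.56 to 1.93, 5.04 to 7.47 and 8.21 to 11.7 CPM; in the other 3 genes water replicate 3 is the highest water library.

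The order of the groups was then read, 1 combination at a time, in libraries with no part in choosing the genes of that combination. In each of 64 combinations, 1 library of each treatment was set aside, the rule was applied to the other 9 libraries, and the 3 libraries set aside were compared on the genes so chosen, 135 to 592 in number (median 332). The combinations share libraries and are not replicates. The genes so chosen differ between combinations, and their overlap with the set selected on all libraries was not counted. The rule was the one used on all libraries, taken up with earlier results of these data known. The values therefore describe the rule and are no independent test of that set. IbPep1 stood above IbHypSysIV in a median of 92.7% of the genes chosen in each combination (range 71.5% to 100%). Over all genes the median was 52.9% (range 42.2% to 61.4%). The median difference between them was above 0 in all 64 combinations, at 0.34 to 1.54, with a middle value of 0.85, smaller than the 1.30 of the genes selected on all libraries.

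Against water, the order held more often for IbPep1 than for IbHypSysIV in these libraries. The median difference of IbPep1 from water was above 0 in 60 of 64 combinations, with a middle value of 0.68. The 4 exceptions were among the 16 with water replicate 3 set aside, where the middle value was 0.10. With water replicate 1, 2 or 4 set aside the middle value was 0.78, 0.81 and 0.72. For IbHypSysIV the difference was below 0 in 41 of 64 combinations, with a middle value of -0.38. It was below 0 in all 16 combinations with IbHypSysIV replicate 2 set aside and all 16 with replicate 3, but in 5 of 16 with replicate 1 and 4 of 16 with replicate 4. With water replicate 3 set aside, it was below 0 in 16 of 16, and with water replicate 1, 2 or 4 in 8, 8 and 9 of 16. The full order was IbPep1 above water above IbHypSysIV. It was met by a median of 44.4% of the genes chosen in each combination (range 22.9% to 80.2%). Over all genes the median was 17.0% (range 10.1% to 33.6%).

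With water replicate 3 never used, in 48 combinations of the rest, the difference between the peptides and that of IbPep1 from water were above 0 in all 48. The middle values were 0.89 and 0.60. The difference of IbHypSysIV from water was below 0 in 38 of 48, with a middle value of -0.35, and in 9, 12, 12 and 5 of 12 with IbHypSysIV replicates 1 to 4 set aside. The full order was then met by a median of 53.0% of the genes chosen in each combination, against 16.9% of all genes.

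**Figure D5:**
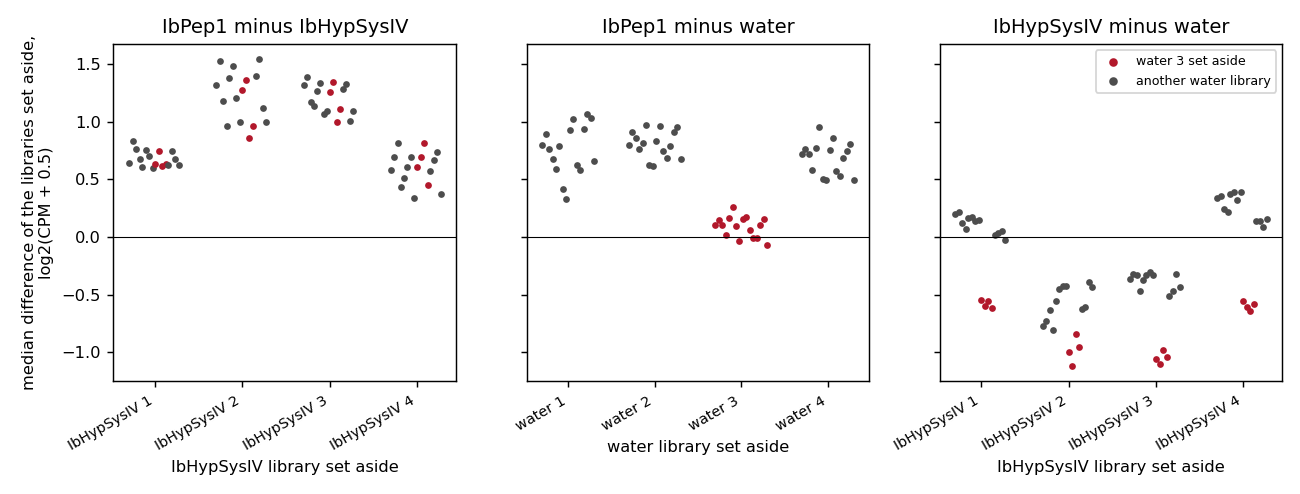
Median difference on the log2(CPM + 0.5) scale between the 3 libraries set aside, for 64 combinations, by the library set aside on the horizontal axis. The genes were chosen anew in each combination with the other 9 libraries. Points are red where water replicate 3 was set aside. All points are above 0 for IbPep1 minus IbHypSysIV, 60 of 64 for IbPep1 minus water, and 41 of 64 are below 0 for IbHypSysIV minus water.

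The genes were spread over all 16 identifier prefixes, itf00 to itf15. Prefix itf12 held the most, 37 of its 1506 genes with at least 1 CPM in water (2.46%), and the other prefixes held 0.839% to 1.65%, against 1.33% overall. In the order of the identifiers, 67 of the 273 genes (24.5%) had another of the set within 10 positions and 16 (5.86%) had one directly beside them. For the 250 genes of the mirror-image set the corresponding counts were 56 (22.4%) and 24 (9.60%). Identifier order is used here only as an order of names, and no coordinates are given.

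A single stretch of 22 consecutive itf06 identifiers held 9 of the genes, the longest run in the set, noticed after the values were seen. Their IbPep1 differences were 0.45 to 1.11 and their IbHypSysIV differences -0.90 to -0.56. The medians of the 9 relative to water were -0.33, -0.39, 1.00 and -0.19 in the water libraries, -0.31, -1.44, -0.76 and -0.38 with IbHypSysIV and 0.60, 0.89, 0.81 and 0.63 with IbPep1. Water replicate 3 was the highest water library in all 9 and above every IbPep1 median, IbHypSysIV replicate 2 was the lowest of its group in 8, and 2 of the 9 belong to the core of 53. The stretch held 5 further genes with at least 1 CPM in water, of which 3 were higher with IbPep1 than with IbHypSysIV. Their differences between the peptides ran from -1.25 to 1.16. These 5 had failed the rule, so whether the stretch moved as a block cannot be read from them. Whether these genes share reads was not tested. The next longest run was 6 genes among 22 consecutive itf01 identifiers, with 13 other genes of which 11 were higher with IbPep1 than with IbHypSysIV.

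Genes directly beside the chosen ones in this order had smaller differences, which their exclusion from the set all but fixed. The 368 neighbours that were not in the set and had at least 1 CPM in water had a median difference between the peptides of 0.11, against 0.0331 over all genes. Their medians against water were 0.05 for IbPep1 and -0.01 for IbHypSysIV.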

How the data were processed

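The authors deposited raw read counts per gene identifier, 1 column per library, which were used as deposited. Per the submitters' processing notes the tools included HISAT2 (2.0.5), HTSeq (0.6.1) and, separately, DESeq2 (1.22.2). The sources used here give no genome build, annotation or strand setting. The labels' protocols name a NEBNext and a SMARTER library kit without saying which library used which. Libraries were grouped by source name, and replicates numbered in accession order.

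CPM used the column total. For the calls, genes were filtered with filterByExpr, scaled by TMM and fitted in edgeR 4.0.16 (R 4.3.3) with all 12 libraries in 1 model and group as the only term, p-values being Benjamini-Hochberg adjusted over 23193 genes; the procedure was tested on simulated data. DESeq2 1.42.0, limma-voom (limma 3.58.1), other scalings and omissions were alternatives. The members, lists and libraries described apart were chosen with earlier results of these data known. Printed identifiers are the 2 members with the largest IbPep1 difference and the 2 others with the largest IbHypSysIV fall, among those with at least 10 counts in every library. Gene lists by function could not be used.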

Additional observations from a re-analysis of the deposited data

Results flagged for a closer look

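In 18 sets of 4 replicate values, a library was marked when its distance from the nearest other value took up most of the range. The sets were the share of reads, the median level and the 4 printed genes, each within a treatment. Chance marks about 1 in 20 unrelated and unselected sets. These sets overlap and hold chosen genes, so the 2 that were marked are not set against that rate. The share of reads in the 273 genes was 1.385% in water replicate 3, against 0.772% to 0.832% in the other water libraries, a gap of 0.902 of the range. The level of itf12g18230 was 28.06 CPM in IbHypSysIV replicate 4, against 2.47 to 5.75 CPM in the other libraries of that treatment, a gap of 0.872 of the range.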

How the results depend on the processing

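The rule gave 496 genes with a limit of 0.3 and 66 with 0.6, and 174 to 447 over the 12 omissions of 1 library; with the scalings, pseudocounts and minimum levels tried and without the condition on overlap it stayed within 1.5 times 273. DESeq2 called 78 members for IbPep1 and 57 for IbHypSysIV against water, among 2212 and 880 of 23193 genes. Omissions gave 8 to 133 and 1 to 20 such calls, among 235 to 3009 and 14 to 405 over all genes. A fit of the 2 groups alone called 4 for IbHypSysIV, among 82. The title numbers shared by some libraries pair nothing in the labels, and same-numbered libraries had correlations of their deviations from -0.076 to 0.14. With a replicate block on them, 80, 0 and 62 members were called for IbPep1, for IbHypSysIV and between the peptides, among 1771, 0 and 217 genes in all; in the block fit (edgeR) 54 members had an unadjusted p under 0.05 for IbHypSysIV. The difference of itf03g12560 between IbHypSysIV and water reversed to 0.1678 without water replicate 3 and 0.0592 without IbHypSysIV replicate 2, and over all omissions ran from -0.7313 to 0.1678. The median differences of the set ran from 0.57 to 0.77 for IbPep1 and from -0.71 to -0.44 for IbHypSysIV against water; their sign was fixed by the choice of genes. The order in libraries set aside, read on genes chosen anew in each combination, was 44.4%. It moved by less than its spread with TMM scaling. Leaving out water replicate 3 for the 3 separate levels (32 genes in place of 12) and for the order in libraries set aside (53.0%) was chosen after seeing the data. The causes were not tested. Depth limits 3 members with under 3 counts in some library.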
